A study of Talaromyces pinophilus with 6 samples.

Results

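A pair of sterol synthesis enzymes was followed in the filamentous fungus *Talaromyces pinophilus*: *TP02791*, annotated as squalene monooxygenase, and *TP04139*, annotated as sterol 14-demethylase. They are 2 of the 11632 genes listed above 0 in at least 1 of 6 RNA-sequencing libraries. Both were chosen by name, as steps of ergosterol synthesis in growing mycelium, with their difference between the strains already known, so that difference is described here and carries no test. The strain Δ*TP05746* lacks *TP05746*, which encodes a Zn2Cys6 (zinc cluster) transcription factor, and also lacks *TpKu70*. Its parent Δ*TpKu70* lacks only *TpKu70*, which acts in DNA end joining and is often deleted so that gene targeting becomes more efficient. Both strains were made from strain 1–95, each strain gave 3 libraries, and the comparison is that of 1 deletion strain with its parent. Mycelium had been moved out of glucose medium into medium with 1% (w/v) soluble corn starch and was collected 12 h later.

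Ergosterol is the main membrane sterol of most fungi, where it holds the place that cholesterol holds in animals. It is built from acetyl-CoA by way of farnesyl diphosphate, which squalene synthase joins into squalene. Squalene monooxygenase adds an oxygen to squalene, lanosterol synthase folds the product into the ring system of the sterols, and sterol 14-demethylase, a cytochrome P450, then removes a methyl group from that ring system. Both oxygen-using steps are targets of antifungal drugs: allylamines such as terbinafine block squalene monooxygenase, and azoles block sterol 14-demethylase.

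The libraries held 4091718 to 4190623 expected counts in Δ*TP05746* and 4600785 to 4696455 in Δ*TpKu70*, where an expected count is the number of reads that RSEM assigned to a gene. The deleted gene *TP05746* had 0, 0 and 0 counts in Δ*TP05746*, against 135, 42 and 28 counts in Δ*TpKu70*. It was at least 33.7-fold lower in Δ*TP05746*, or at least 19.9-fold without Δ*TpKu70* replicate 1 (floor of 3 counts in each library). That library stood apart from its group. Its correlation across genes with the other Δ*TpKu70* libraries was 0.898 and 0.890 (log2 normalized values, genes tested), against 0.966 between those, and it lay closer to the Δ*TP05746* libraries (0.712 to 0.733) than they did (0.591 to 0.641). Separate cultures behind the 3 libraries of each strain are not stated in the sources, and p-values therefore measure no more than library-to-library spread.

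*TP02791*, squalene monooxygenase, was at a higher level in every Δ*TP05746* library than in any Δ*TpKu70* library. It had 4051, 5499 and 4847 expected counts in Δ*TP05746* replicates 1, 2 and 3, against 834, 1103 and 963 in Δ*TpKu70*. Scaled by sequencing depth to CPM with TMM factors, which correct for the makeup of each library, these were 756, 963 and 878 CPM in Δ*TP05746*, against 206, 328 and 315 CPM in Δ*TpKu70*. Replicate 2 was the highest library of each strain and replicate 1 the lowest, and the groups did not overlap: the lowest Δ*TP05746* value was 2.30 times the highest Δ*TpKu70* value. The mean was 866 ± 104 CPM in Δ*TP05746* and 283 ± 67.3 CPM in Δ*TpKu70* (SD, n = 3 each), a 3.06-fold difference, and the fitted log2 fold change was 1.61 (SE 0.27). In bulk RNA, a change in the share of cells of 1 kind and a change in RNA per cell cannot be told apart. Without Δ*TpKu70* replicate 1 the fitted value was 1.42.

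Per unit of gene length, *TP02791* was the more abundant of the pair in every library. Its FPKM, which divides the fragments of a gene by its length and by the library's mapped total, was 465, 636 and 565 in Δ*TP05746*, against 91.3, 121 and 108 in Δ*TpKu70*. It ranked 278th, 187th and 216th by FPKM among the genes listed in each Δ*TP05746* library, against 1126th, 750th and 819th in the Δ*TpKu70* libraries. It therefore stood above 97.2% to 98.1% of listed genes in Δ*TP05746* and above 88.5% to 92.4% in Δ*TpKu70*. The mean FPKM was 555 ± 85.8 in Δ*TP05746* and 107 ± 15.1 in Δ*TpKu70* (SD, n = 3 each), a 5.19-fold difference, larger than on the CPM scale because FPKM carries no TMM factor.

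*TP04139*, sterol 14-demethylase, was also higher in all 3 Δ*TP05746* libraries. It had 1636, 2282 and 1730 expected counts in Δ*TP05746* replicates 1, 2 and 3, against 229, 458 and 406 in Δ*TpKu70*. On the TMM-scaled axis this was 305, 400 and 314 CPM in Δ*TP05746*, against 56.4, 136 and 133 CPM in Δ*TpKu70*. Δ*TpKu70* replicate 1 was far below the other libraries of its strain, while Δ*TP05746* replicate 2 was the highest of all, and the lowest Δ*TP05746* value was 2.24 times the highest Δ*TpKu70* value. The mean was 340 ± 52.2 CPM in Δ*TP05746* and 108 ± 45.1 CPM in Δ*TpKu70* (SD, n = 3 each), a 3.13-fold difference. The fitted log2 fold change was 1.65 (SE 0.36), and 1.33 without Δ*TpKu70* replicate 1. In FPKM, *TP04139* stood at 176, 247 and 189 in Δ*TP05746*, against 23.5, 47.3 and 42.8 in Δ*TpKu70*. Its mean FPKM was 204 ± 37.9 in Δ*TP05746* and 37.9 ± 12.6 in Δ*TpKu70* (SD, n = 3 each), a 5.39-fold difference. It ranked between 516th and 730th of the listed genes in Δ*TP05746*, and between 1682nd and 3218th in Δ*TpKu70*.

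**Figure D1:**
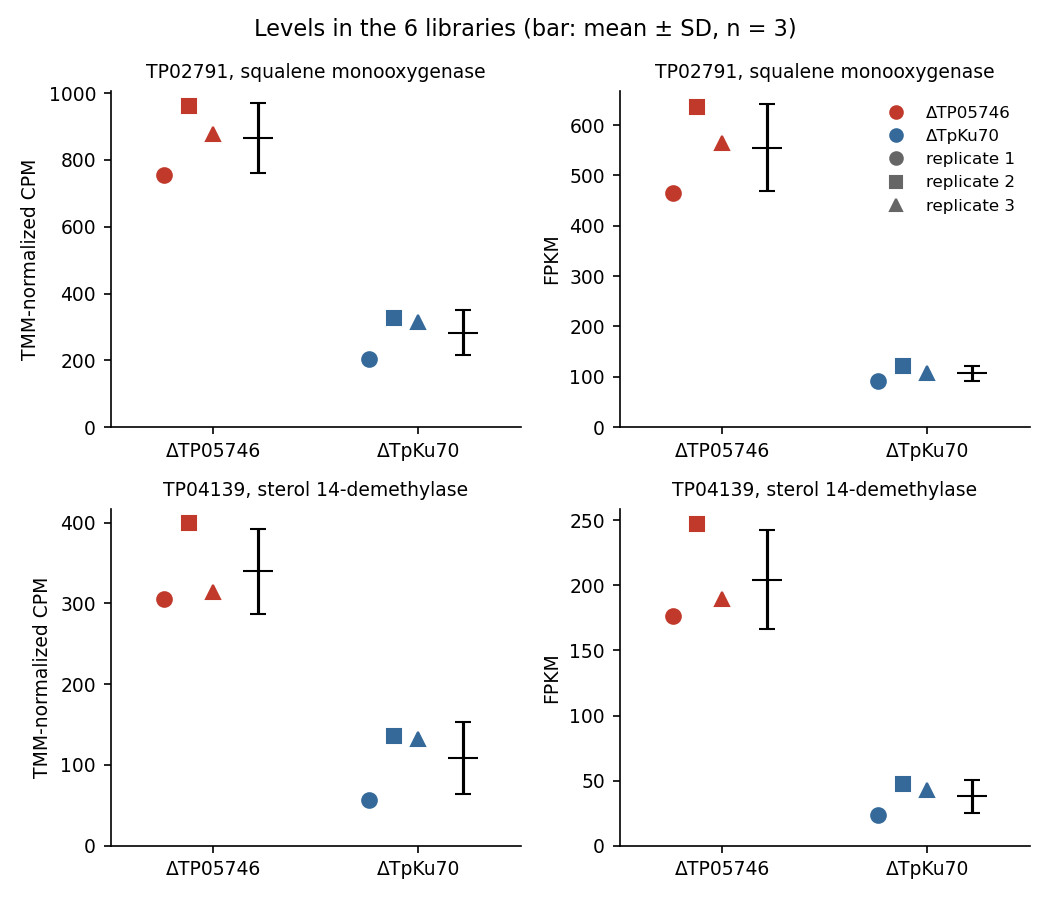
Levels of *TP02791* (upper row) and *TP04139* (lower row) in each library, as TMM-normalized CPM (left) and FPKM (right), with Δ*TP05746* in red left of Δ*TpKu70* in blue. Marker shape gives the replicate number and the bars are mean ± SD of 3 libraries; *TP02791* lay at 756 to 963 CPM in Δ*TP05746* and 206 to 328 CPM in Δ*TpKu70*, and for neither gene did the strains overlap on either scale.

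Both genes were past the threshold as higher (edgeR's quasi-likelihood test, adjusted p of at most 0.05 and absolute log2 fold change of at least 1), as were 1550 of the 8522 genes tested, or 18.2%, while 1749 were past it as lower. Scaled by library totals without TMM factors, the split was 3290 higher and 1059 lower. Since both genes were picked with this contrast known, nothing is read from their calls. By log2 fold change *TP04139* ranked 1125th and *TP02791* 1163rd from the highest of the genes tested, with 13.2% and 13.6% of genes above them. Over all genes tested the median log2 fold change was 0.03 with TMM factors, and 0.85 by library totals. Relative to that median *TP04139* was at 1.62 and *TP02791* at 1.59 on the log2 scale, and over the 19 other settings tried they ranged from 1.28 to 1.83 for *TP04139* and from 1.37 to 1.72 for *TP02791*.

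**Figure D2:**
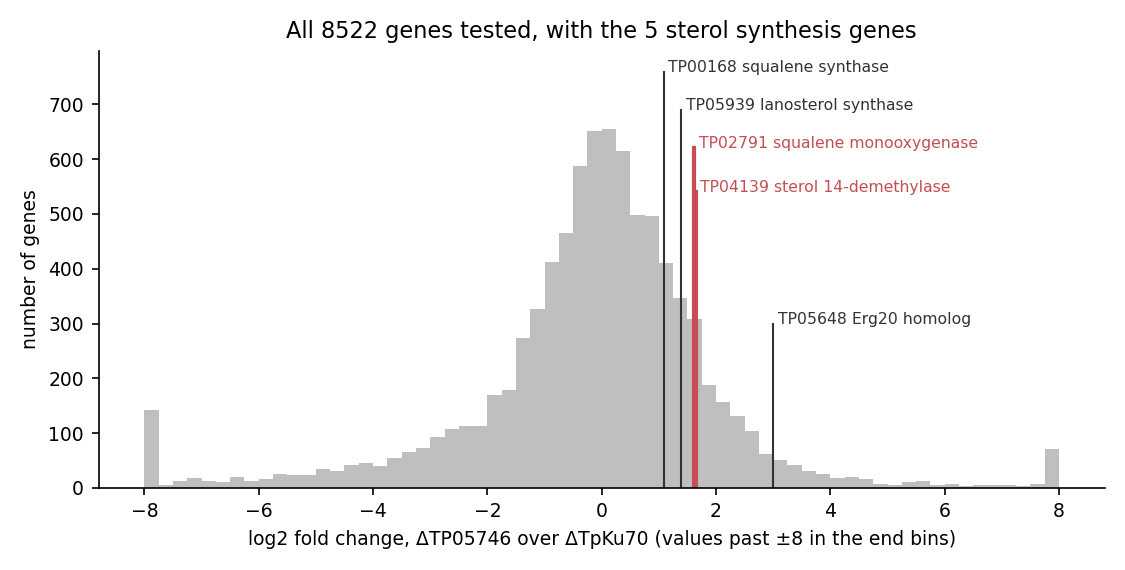
Histogram of the log2 fold change, Δ*TP05746* over Δ*TpKu70*, of the 8522 genes tested (y axis: number of genes; values past the ends are in the end bins), with the 5 sterol synthesis genes as vertical lines. *TP02791* at 1.61 and *TP04139* at 1.65, in red, lie to the right of the peak and inside the body of the distribution; line heights carry no value.

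The spread between libraries was wider than counting error. For *TP02791* the coefficient of variation (SD over mean, CPM) was 12.0% in Δ*TP05746* and 23.8% in Δ*TpKu70*, while the counting error of a single library was at most 3.46% of its count. For *TP04139* it was 15.4% in Δ*TP05746* and 41.6% in Δ*TpKu70*, against a counting error of at most 6.61%. The median gene tested had 16.8% in Δ*TP05746* and 30.7% in Δ*TpKu70*, so that *TP04139* in the parent was the 1 case of these 4 above the median. The 229 counts of *TP04139* in Δ*TpKu70* replicate 1 have an exact 95% Poisson interval of 200 to 261, which does not reach the 417 to 502 around the 458 counts of replicate 2. These intervals cover counting error only.

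The 2 genes ordered the 6 libraries in the same way, from Δ*TP05746* replicate 2 as the highest, through Δ*TP05746* replicates 3 and 1 and then Δ*TpKu70* replicates 2 and 3, to Δ*TpKu70* replicate 1 as the lowest. Their Pearson r over the 6 libraries was 0.980 (log2(CPM + 1)), a value to which the strain difference itself contributes, and 0.994 without Δ*TpKu70* replicate 1. With each strain's mean taken out, r was 0.968 over the same 6 libraries, and 1.96% of the other genes tested had a higher value with *TP04139*. That last measure was chosen after the values were seen, and genes of 1 library share its depth and scaling. The ratio of *TP02791* to *TP04139* in FPKM was 2.64, 2.57 and 2.99 in Δ*TP05746*, against 3.88, 2.57 and 2.53 in Δ*TpKu70*. Δ*TpKu70* replicate 1 had the highest ratio, away from the other 5 libraries, and the groups overlapped. On the log2 scale the ratio was 1.45 ± 0.12 in Δ*TP05746* and 1.55 ± 0.35 in Δ*TpKu70* (SD, n = 3 each), a difference within the spread of the libraries.

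Other pathway genes, from the making of farnesyl diphosphate on, were taken from the annotated rows at hand of the study's table of changed genes. That table was itself made from these libraries, so neither their count nor their adjusted p-values are independent evidence of a direction. The rows at hand are only part of that table. Earlier steps from acetyl-CoA, and pathway genes not annotated in those rows, are outside the list. Of that list of 5, which includes *TP02791* and *TP04139*, 5 were past the threshold as higher and 0 as lower, with a median log2 fold change of 1.61, beside 18.2% of all genes tested and a median of 0.03. All 5 lay higher in Δ*TP05746* without overlap, as did 32.1% of all genes tested. Each of the other 3 stands upstream of sterol 14-demethylase in the pathway. Earlier genes, outside the list, went both ways: of 4 tested genes that make or first use acetyl-CoA, 2 were higher and 2 lower. The lower ones include *TP00089*, acetyl-CoA C-acetyltransferase, at a log2 fold change of -2.69.

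*TP05648*, the homolog of Erg20, which makes farnesyl diphosphate in *Saccharomyces cerevisiae*, had the largest difference of the 5. It had 1030, 1124 and 1178 counts in Δ*TP05746*, against 202, 48 and 32 in Δ*TpKu70*, and its mean was 201 ± 11.1 CPM in Δ*TP05746* and 24.8 ± 21.7 CPM in Δ*TpKu70* (SD, n = 3 each). Its log2 fold change was 3.0 (SE 0.59, edgeR adjusted p = 0.00698), and 4.0 without Δ*TpKu70* replicate 1, the parental library in which it was highest. *TP00168*, squalene synthase, which supplies the substrate of *TP02791*, averaged 248 ± 13.5 CPM in Δ*TP05746* and 117 ± 35.0 CPM in Δ*TpKu70* (SD, n = 3 each). It had the smallest log2 fold change of the 5, at 1.09 (SE 0.25, edgeR adjusted p = 0.0125), and fell short of the fold minimum, at 0.91, without Δ*TpKu70* replicate 3. *TP05939*, lanosterol synthase, which uses the product of *TP02791*, averaged 223 ± 8.50 CPM in Δ*TP05746* and 85.1 ± 18.8 CPM in Δ*TpKu70* (SD, n = 3 each), with a log2 fold change of 1.39 (SE 0.22, edgeR adjusted p = 0.00295).

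**Figure D3:**
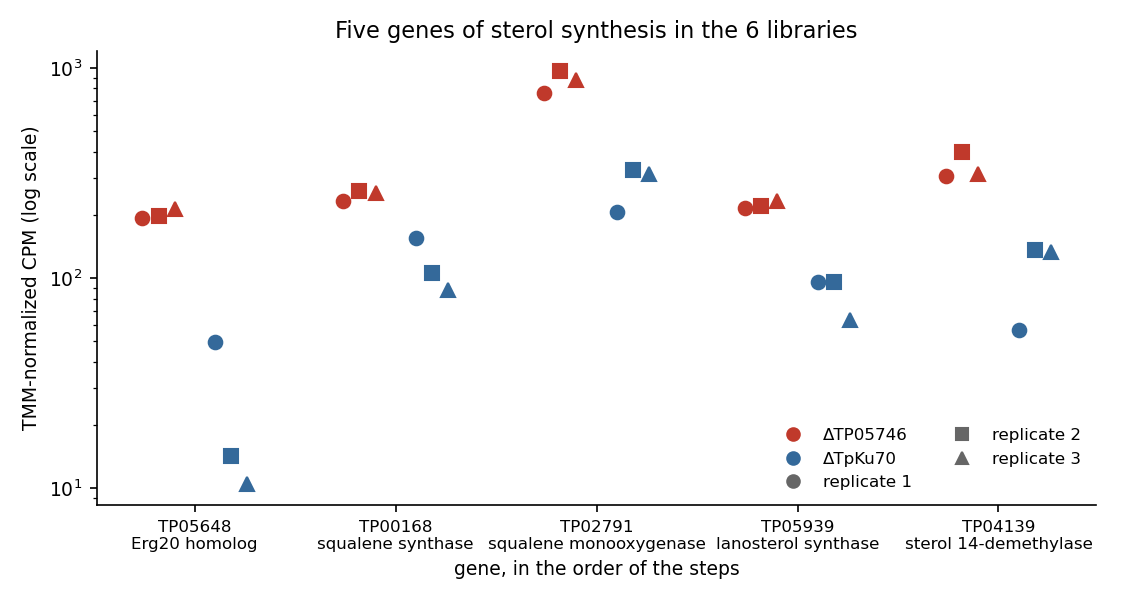
TMM-normalized CPM (log axis) of the 5 sterol synthesis genes in each library, in the order of the steps, with Δ*TP05746* in red left of Δ*TpKu70* in blue and marker shape giving the replicate. In Δ*TpKu70*, replicate 1 (circle) is the lowest library for *TP02791* and *TP04139*, the highest for *TP05648* and *TP00168*, and level with replicate 2 for *TP05939*.

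*TP02791* and *TP04139* parted from *TP05648* and *TP00168* in Δ*TpKu70* replicate 1. There *TP04139* was at 0.42 times and *TP02791* at 0.639 times the mean of Δ*TpKu70* replicates 2 and 3 (CPM), while *TP05648* was at 4.02, *TP00168* at 1.60 and *TP05939* at 1.21 times that mean. For *TP05648* and *TP00168* that library thus lay between the Δ*TP05746* libraries and the other Δ*TpKu70* libraries, for *TP05939* it was level with replicate 2 (96.1 CPM in replicate 1, 95.8 in replicate 2 and 63.4 in replicate 3), and for *TP02791* and *TP04139* it lay below all 5. Of the 1550 genes past the threshold as higher, it lay between for 59.0% and below all others for 16.7%. With strain means taken out, r with *TP04139* was -0.94 for *TP05648*, -0.84 for *TP00168* and -0.46 for *TP05939* over the 6 libraries. The counterparts with *TP02791* were -0.86, -0.74 and -0.36. These values were examined after the position of that library was seen, and they include it. Within Δ*TP05746*, *TP00168* ordered the libraries as *TP02791* and *TP04139* did (replicates 2, 3 and 1 from the highest), while *TP05648* and *TP05939* rose from replicate 1 to 3. All 5 genes were higher in Δ*TpKu70* replicate 2 than in replicate 3.

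Compared per unit of length, *TP02791* headed the 5 genes in all 6 libraries, with its lowest FPKM in a strain above the highest of any other of the list. In Δ*TP05746* the order of mean FPKM went on with *TP04139* (204 ± 37.9), *TP05648* (196 ± 15.5), *TP00168* (168 ± 15.1) and *TP05939* (90.7 ± 5.21; SD, n = 3 each). The ranges of *TP04139*, *TP05648* and *TP00168* overlapped one another there, and *TP05939* lay below all of them. In Δ*TpKu70*, *TP04139* (37.9 ± 12.6) came behind *TP00168* (48.9 ± 21.5) and ahead of *TP05939* (21.1 ± 6.72) and *TP05648* (15.8 ± 15.7; SD, n = 3 each), and each of these overlapped its neighbours.

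Summed over the 5 genes, the level was 1057, 1355 and 1231 FPKM in Δ*TP05746*, against 249, 241 and 202 FPKM in Δ*TpKu70*. This was 0.172 ± 0.0287% of all FPKM in Δ*TP05746* and 0.0340 ± 0.00503% in Δ*TpKu70* (SD, n = 3 each). *TP02791* took 45.6 ± 1.48% of the sum in Δ*TP05746* and 46.9 ± 8.94% in Δ*TpKu70*, and *TP04139* took 16.8 ± 1.45% in Δ*TP05746* and 16.7 ± 6.36% in Δ*TpKu70* (SD, n = 3 each). The shares of both genes thus differed between the strains by less than the spread of the libraries. *TP05648* took 16.2 ± 1.34% in Δ*TP05746* and 6.55 ± 6.11% in Δ*TpKu70*, and *TP00168* took 13.9 ± 0.498% in Δ*TP05746* and 20.8 ± 7.45% in Δ*TpKu70* (SD, n = 3 each). In Δ*TpKu70* replicate 1 alone, *TP02791* made up 36.7% and *TP04139* 9.45% of the sum, the lowest share of any library for each.

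**Figure D4:**
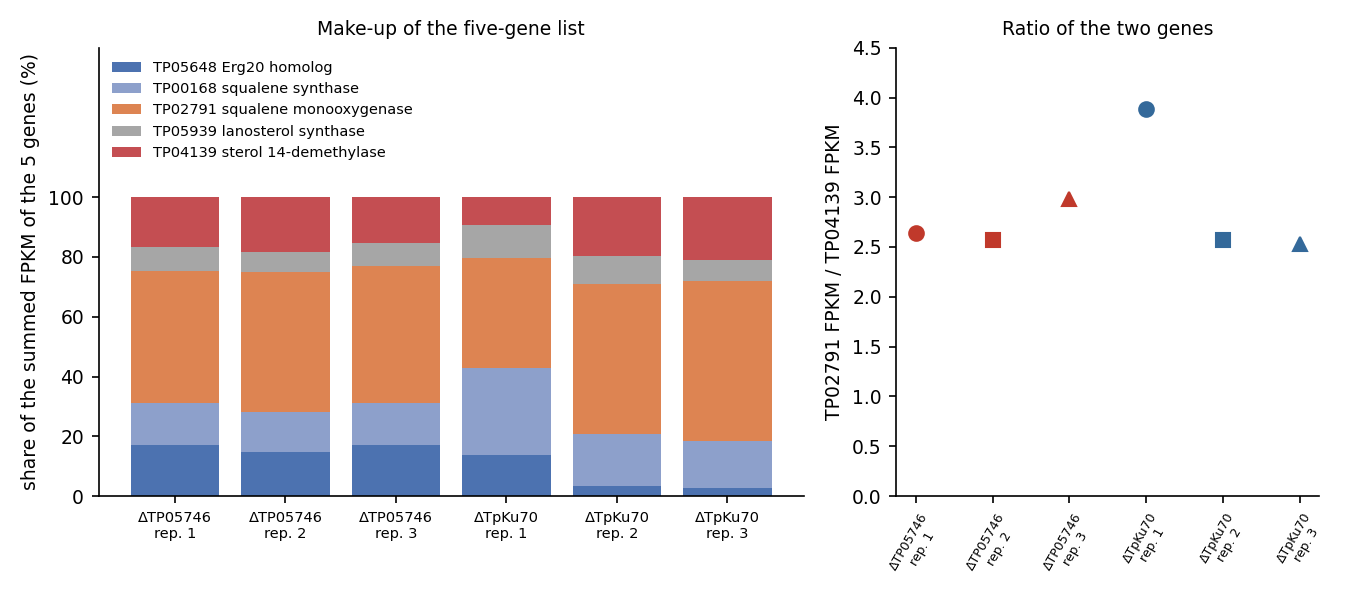
Left: share of each gene in the summed FPKM of the 5 sterol synthesis genes, 1 bar per library, Δ*TP05746* left of Δ*TpKu70*. Right: ratio of *TP02791* FPKM to *TP04139* FPKM in each library; 5 libraries lie between 2.53 and 2.99 and Δ*TpKu70* replicate 1 at 3.88.

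Genes whose levels followed *TP02791* and *TP04139* most closely were ranked by Pearson r of log2(CPM + 1) over the 6 libraries (8521 other genes tested). The closest ones with an annotation had none for sterol synthesis, and the kind of those without is unknown. For *TP04139* the closest were *TP02387* (r = 0.994) and *TP13353* (0.993), which have no annotation at hand, and *TP05793*, annotated as a short-chain dehydrogenase (0.991). Next among annotated genes were *TP00873*, a 1,3-beta-glucanosyltransferase, a kind of enzyme that remodels cell wall glucan (0.990), and *TP04014*, an alpha-amylase, which cuts starch (0.986). For *TP02791* the closest were *TP06639* (0.999), *TP05161* (0.998) and *TP07280* (0.998), none with an assigned function at hand. The closest annotated genes were *TP04171*, an O-methyltransferase (0.995), *TP02191*, a polyglutamate biosynthesis protein (0.993), and *TP01567*, the homolog of Gdh1, a glutamate dehydrogenase in *S. cerevisiae* (0.991). Each of *TP02791* and *TP04139* was close to the other as well, *TP02791* being 28th in the order of *TP04139* and *TP04139* 77th in that of *TP02791*. By contrast *TP05648* (0.67 with *TP04139*, 0.80 with *TP02791*), *TP00168* (0.67 and 0.80) and *TP05939* (0.80 and 0.90) stood farther down. Such values are common here, and each holds the strain difference as well: 803 genes reached r of 0.9 with *TP02791* and 379 with *TP04139*. *TP05793*, *TP04014*, *TP06639* and *TP01567* have fractional counts, which means that they share reads with other genes and that their levels are less certain. *TP02791* and *TP04139* have whole counts in all 6 libraries (tolerance 0.001).

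Genes around the pathway did not move in 1 direction. They too come from the study's table of changed genes, so nearly all were bound to be past the threshold. Their directions, sizes and adjusted p-values describe the same libraries and are not independent evidence. Of 5 genes that make or first use acetyl-CoA, the building block of sterols, 4 could be tested, with 2 higher (18.2% of all genes tested), 2 lower (20.5% of all) and a median log2 fold change of 0.24. *TP02517*, a subunit of ATP-citrate synthase, which makes acetyl-CoA in the cytosol, averaged 1063 ± 85.9 CPM in Δ*TP05746* and 319 ± 154 CPM in Δ*TpKu70* (SD, n = 3 each; log2 fold change 1.74, edgeR adjusted p = 0.00976), with fractional counts. *TP00089*, acetyl-CoA C-acetyltransferase, a kind of enzyme that joins acetyl-CoA units or splits them from longer chains, went the other way. It had 528, 626 and 502 counts in Δ*TP05746*, against 2167, 2443 and 2065 in Δ*TpKu70*, and averaged 99.7 ± 9.38 CPM in Δ*TP05746* and 645 ± 99.8 CPM in Δ*TpKu70* (SD, n = 3 each; log2 fold change -2.69, edgeR adjusted p = 0.000402). The count of 2 lower genes in this list held in 6 of 19 other settings and was 1 without Δ*TpKu70* replicate 1. The 2 higher became 0 in a test against the fold minimum. Both have fractional counts, so neither was in the fit that left such genes out.

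All 4 listed genes of fatty acid oxidation, which yields acetyl-CoA, were past the threshold as lower, with a median log2 fold change of -3.30, as were 20.5% of all genes tested. The count was 3 by library totals, in the limma fits, with a replicate block, without Δ*TP05746* replicate 2 or 3 and without Δ*TpKu70* replicate 3, among other settings. All 4 also lay below Δ*TpKu70* without overlap in TMM-scaled CPM, as did 29.9% of all genes tested, but by library totals the acyl-CoA oxidase gene *TP00671* overlapped (chosen after its values were seen). *TP03996*, carnitine O-acetyltransferase, which passes acetyl groups between compartments, fell to 76.6 ± 2.70 CPM in Δ*TP05746*, against 1437 ± 131 CPM in Δ*TpKu70* (SD, n = 3 each; log2 fold change -4.23, edgeR adjusted p = 0.000186). *TP03963*, 3-ketoacyl-CoA thiolase, which releases acetyl-CoA from the shortening chain, fell to 49.6 ± 12.8 CPM in Δ*TP05746*, against 793 ± 318 CPM in Δ*TpKu70* (SD, n = 3 each; log2 fold change -4.00, edgeR adjusted p = 0.000675). Both have fractional counts, and without genes of that kind 2 of the list remained, both lower.

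Of 10 genes for other membrane lipids, 8 could be tested, with 6 higher (18.2% of all genes tested), 2 lower (20.5% of all) and a median log2 fold change of 1.37. The 6 higher became 1 in a test against the fold minimum and 5 with a replicate block. *TP05359*, dihydrosphingosine phosphate lyase, which breaks down sphingoid bases, had 26, 23 and 30 counts in Δ*TP05746*, against 2, 7 and 3 in Δ*TpKu70* (log2 fold change 2.01, edgeR adjusted p = 0.0202), a call kept in 13 of 18 other settings. *TP00468*, an aminophospholipid translocase, which moves phospholipids across the membrane, averaged 249 ± 38.4 CPM in Δ*TP05746* and 1139 ± 251 CPM in Δ*TpKu70* (SD, n = 3 each; log2 fold change -2.20, edgeR adjusted p = 0.00148), and like the other lower gene of the list it has fractional counts. Another 6 genes, all from the part of the study's table at hand, carry cytochrome P450, the enzyme family of *TP04139*, in their annotation. Of these, 4 could be tested, with 3 higher (18.2% of all genes tested) and 1 lower (20.5% of all). The P450 gene *TP03127* had 959, 1021 and 836 counts in Δ*TP05746*, against 13, 14 and 4 in Δ*TpKu70*, far apart and with a larger log2 fold change than *TP04139* (5.85, edgeR adjusted p = 0.000232). *TP03310*, annotated as an alkane-inducible P450, had 1, 0 and 0 counts in Δ*TP05746*, against 21, 44 and 30 in Δ*TpKu70* (edgeR adjusted p = 0.00136). It met the filter for testing only through Δ*TpKu70*, where its FPKM was 2.22, 4.67 and 3.25, so its adjusted p-value is no evidence of a direction either. *TP03127* and *TP03310* were thus at low counts in 1 of the strains, while *TP04139* had at least 229 counts in every library.

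The labelled tissue is mycelium, for which the sources give no marker gene. Of 3 regulators or proteins of conidia (asexual spores), WetA (*TP05733*), which acts in spore wall maturation, averaged 9.30 ± 1.70 CPM in Δ*TP05746* and 20.1 ± 7.61 CPM in Δ*TpKu70* (SD, n = 3 each; log2 fold change -1.11, edgeR adjusted p = 0.0403), a call kept in 6 of 19 other settings. VosA (*TP10901*), a regulator of spore maturation, averaged 6.20 ± 3.90 CPM in Δ*TP05746* and 2.59 ± 2.34 CPM in Δ*TpKu70* (SD, n = 3 each; edgeR adjusted p = 0.316). RodA (*TP05897*), the hydrophobin of the spore coat, had 2, 0 and 0 counts in Δ*TP05746*, against 3, 5 and 7 in Δ*TpKu70* (edgeR adjusted p = 0.0345), a call kept in 9 of 18 other settings. All 3 were below *TP02791* and *TP04139* in counts in every library, and their part in the levels of both genes was not tested. The study names all 3 among its changed genes, so their adjusted p-values are not independent evidence. They come from a longer list of conidiation genes there, some reported as higher in Δ*TP05746* and others as lower, so these 3 do not stand for that list.

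The size of the difference in *TP02791* and *TP04139* depended on the scaling more than on any library. It was 2.47 for *TP02791* and 2.53 for *TP04139* on the log2 scale by library totals, against 1.61 and 1.65 with TMM factors. Those factors parted by strain, at 1.31 to 1.37 in the Δ*TP05746* libraries and 0.667 to 0.877 in the Δ*TpKu70* libraries. Leaving out 1 library at a time gave 1.42 to 1.74 for *TP02791* and 1.33 to 1.85 for *TP04139*, in both cases lowest without Δ*TpKu70* replicate 1.

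**Figure D5:**
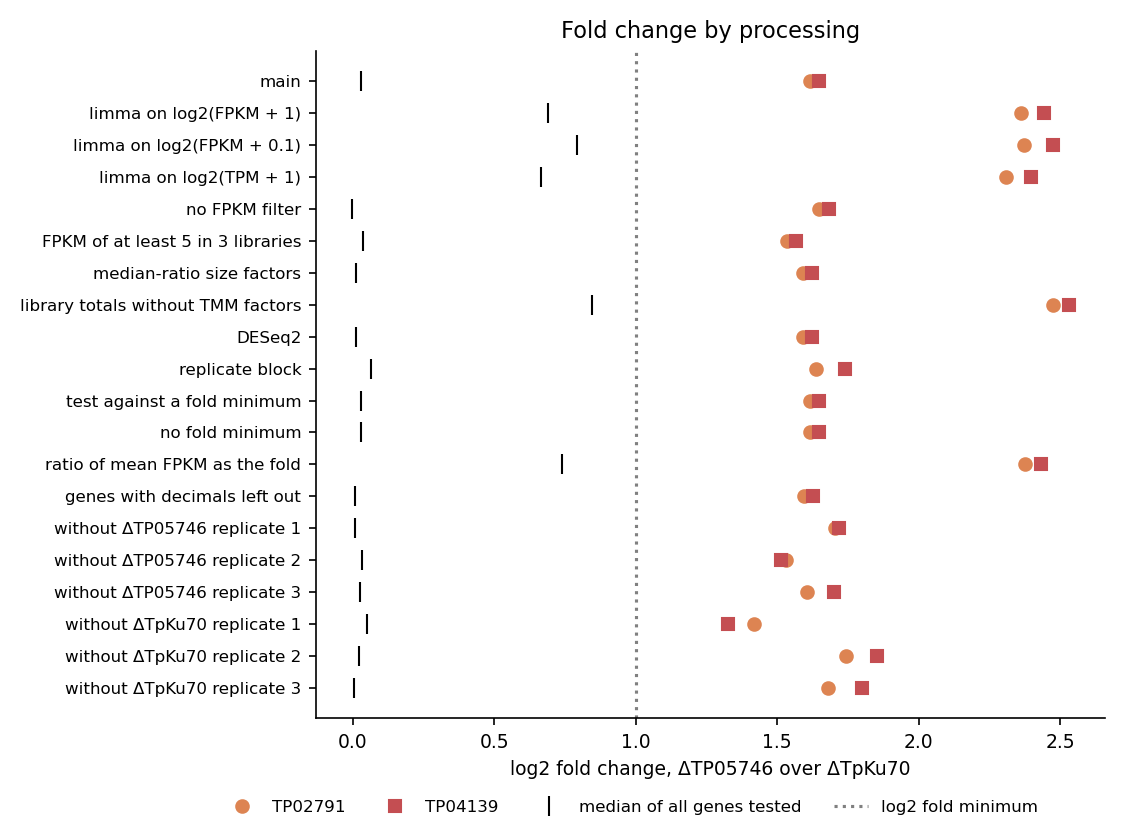
Log2 fold change, Δ*TP05746* over Δ*TpKu70*, of *TP02791* (circles) and *TP04139* (squares) under the setting reported and 19 others, 1 per row, with the median of all genes tested as a bar and the fold minimum as a dotted line. Every value lies above 1; settings that use FPKM, TPM or library totals shift both genes and the median to the right together.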

How the data were processed

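RNA of 3 Δ*TP05746* and 3 Δ*TpKu70* libraries, grouped by the labelled genotype, had been sequenced on an Illumina instrument. The authors mapped reads to the genome of strain 1–95. According to the submitters' processing notes, RSEM 1.2.12, Bowtie2 2.1.0, BWA 0.7.10-r789 and DESeq2 were used. The deposited expected counts are RSEM estimates without scaling, and the deposited FPKM values are scaled by the authors for gene length and library size. Genes not listed in a library were read as 0.

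Expected counts were rounded, only the 8522 genes that reached an FPKM of 1 in 3 or more of the 6 libraries were kept, and strains were compared with edgeR 4.0.16 in R 4.3.3 (TMM factors, quasi-likelihood F test, two-sided, Benjamini-Hochberg). Past the threshold means an adjusted p no higher than 0.05 with a log2 fold change of 1 or more in size. Standard errors are the absolute log2 fold change over the square root of F. Alternatives used limma 3.58.1, DESeq2 1.42.0, other filters, scalings and pseudocounts, a replicate block, and each library left out in turn. The script was tested on simulated data. Python 3.11.15, pandas 2.3.3, SciPy 1.17.1 and matplotlib 3.10.9 were also used. Library totals were 4091718 to 4696455 expected counts, which limits precision for genes with few counts. For *TP02791* and *TP04139* the spread between libraries was wider than counting error.

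*TP02791*, *TP04139* and all gene lists were chosen with earlier results of these data known. The text names these genes, the rest of the sterol list, *TP05746*, conidia markers, the 2 largest changes past the threshold in each other list, and the 3 closest genes, with and without annotation, to each of *TP02791* and *TP04139*. Annotations come from the 1998 rows at hand of the study's table of changed genes. These rows are only part of that table, so the gene lists and the closest annotated genes are not complete for the changed genes. Its values were not used. No genome position or sequence of these genes was used here.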

Additional observations from a re-analysis of the deposited data

How the results depend on the processing

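Having 3 libraries a strain limits the precision. In a test against the fold minimum itself, 2 genes of the sterol list were past the threshold as higher, without *TP04139* at 1.65, and all genes tested gave 741 higher and 1136 lower. Since *TP02791* and *TP04139* were chosen on this contrast, nothing is read from how often they passed. Over the alternatives for *TP04139* that leave a library out, the log2 fold change was 1.33 to 1.85, and over the others 1.57 to 2.53.

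Against 1550 genes higher and 1749 lower, limma gave 3123 and 1069 on log2(FPKM + 1), 3232 and 1107 on log2(FPKM + 0.1), and 3023 and 1137 on log2(TPM + 1), and library totals without TMM factors gave 3290 and 1059. Higher calls thus outnumbered lower ones under these scalings, which moved the median of all genes. Leaving out 1 library gave 1130 to 2137 higher and 1434 to 2011 lower, most of each without Δ*TpKu70* replicate 1, and 4 to 5 sterol genes higher, 4 without Δ*TpKu70* replicate 3. The cause of these shifts was not tested.

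The replicate numbers did not pair the libraries. Same-numbered libraries deviated together with r of -0.0781 to 0.0131, and 1 of 3 Δ*TP05746* libraries correlated best with its own number. With a replicate block, 1380 genes were higher and 1512 lower, *TP02791* was at 1.64 and *TP04139* at 1.74. Of the genes named, no log2 fold change turned its sign under the alternatives run for it.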
